A study of Mus musculus with 9 samples.

Results

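The regions described here are distal binding loci of the glucocorticoid receptor (GR) that were called in mouse granulosa cells before the ovulatory hormone signal and not 6 h after it. Peaks of the 4 deposited GR peak lists on chromosomes 1 to 19 and X were merged into loci where they overlapped by 1 bp or more. A locus was a member if both lists of 0 h held a peak in it, neither list of 6 h did, and it lay over 1 kb from both ends of every protein-coding gene. The members were thus selected on the presence and absence of the authors' peak calls. This left 526 of 18570 loci, or 2.83% of all of them. Another 245 loci were called only at 0 h and lay within 1 kb of a gene end, so that 771 loci were called only at 0 h in all. Of the 526 members, 51 (9.70%) had another GR locus within 500 bp. Because the calls chose them, the calls, enrichments and p-values of the members are given as a description.

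The study mapped GR by chromatin immunoprecipitation and sequencing (ChIP-seq) in granulosa cells, which were released by puncture from the ovaries of 21-day-old wildtype CBA x C57BL/6 F1 mice. Every mouse was first injected with 5 IU of eCG, the equine gonadotropin also called PMSG, and after 44 h the mice were killed (0 h, 2 GR libraries) or given 5 IU of human chorionic gonadotropin (hCG) and killed 6 h later (6 h, 2 GR libraries). Histone H3 acetylated at lysine 27 (H3K27ac) was mapped in a single library, of 0 h, so acetylation after hCG was not measured in the files used here. None of these GR libraries was of the later time without hCG, so hCG, the injection and the time since eCG cannot be told apart. The labels do not say whether the numbered libraries came from separate mice or pools, and the other 4 of the 9 samples, among them the pooled inputs, were not analysed here.

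Granulosa cells surround the oocyte and, under follicle-stimulating hormone (FSH), make oestradiol, inhibins and activins; eCG acts much as FSH does, and hCG replaces the luteinising hormone (LH) surge, which turns the follicle towards ovulation. GR is a steroid hormone receptor that, once it has bound a glucocorticoid, moves to the nucleus and binds DNA directly or through other transcription factors, mostly at chromatin that is already open. H3K27ac marks active promoters and enhancers, and broad domains of it often lie at genes central to the identity of a cell.

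The labelled cell type was checked by H3K27ac at gene starts, which is not a measure of expression. Of the 6 granulosa markers with a start in the RefSeq table, Cyp19a1, Esr2, Foxl2, Fshr, Inha and Nr5a2, all 6 had an H3K27ac peak over a 300-base start window. The same held for 1 of 4 theca markers (Ptch1), 0 of 2 oocyte markers, 0 of 4 leukocyte markers and 0 of 3 endothelial markers, beside 46.4% of 17273 protein-coding genes. At 0 h the authors called 10119 and 9728 GR peaks, and at 6 h 14748 and 10588. The weakest peak of each list had a −log10 p-value of 9.02, 9.0, 9.02 and 9.10, so a locus without a peak is one that did not pass this limit of the authors in that library. For sequencing depth and controls, nothing is given in the sources used here.

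The word distal holds for gene ends only, and some members lay at a start inside a gene. A RefSeq table of gene starts (GRCm38.p6, whose coordinates are those of mm10) gave the 250 bases before and the 50 after each start. It covered the chromosomes of 504 members, and the other 22 were not searched. Of the 504, 27 overlapped such a window, 18 of them at a protein-coding gene and 9 at a long noncoding RNA gene. That is 5.36% of these members (95% Wilson interval 3.71 to 7.68), beside 36.1% of the distal loci called in all 4 libraries (33.3 to 38.9) and 1.93% of those called only at 6 h (1.46 to 2.55). In 9 of the 27 the summits of both 0 h libraries lay inside the window, and 25 of the 27 overlapped H3K27ac. The sequences shown next are start windows of 4 genes that members overlapped, since start windows are the only places where bases of members could be read here. They were chosen after their values were seen: Cyp19a1 as the gene of aromatase, which makes oestradiol, Prkag2 because members lay at more than one of its starts, and Aldh1a1 and Pxylp1 because the member covered most or all of the window with both summits inside it. The last reason held for the windows of Trmt11 and Ddx56 as well, which are not shown. Each sequence shown runs 5′ to 3′ in the direction of transcription, with matches to the searched motifs in capitals.

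The Cyp19a1 window is chr9:54193694-54193993 (minus strand), with the start at 54193743. This is 1 of 3 RefSeq starts of the gene. The member at chr9:54193379-54193885 covered its last 192 bases, and its summits lay 173 bp (first 0 h library) and 136 bp (second) downstream of the start. None of the searched motifs was in this window.
Cyp19a1: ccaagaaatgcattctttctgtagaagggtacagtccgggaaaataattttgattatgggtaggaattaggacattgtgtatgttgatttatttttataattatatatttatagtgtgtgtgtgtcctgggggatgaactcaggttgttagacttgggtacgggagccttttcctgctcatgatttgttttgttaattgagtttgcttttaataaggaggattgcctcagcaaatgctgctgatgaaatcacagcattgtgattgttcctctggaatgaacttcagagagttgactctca
The first Prkag2 window is chr5:24908460-24908759 (minus strand) and the second is chr5:24995704-24996003 (minus strand). The capitals mark GGGCGG, a motif of KLF and SP factors, in the first and the reverse complement of the TEAD motif ACATTCC in the second. The member chr5:24908539-24909068 covered the first 221 bases of the first window, so that only the first base of its marked motif lies in the member, and chr5:24995501-24996087 covered all of the second. They had their summits at −168 and −196 bp from the first start and at −80 and −109 bp from the second, the minus sign standing for upstream.
Prkag2 first: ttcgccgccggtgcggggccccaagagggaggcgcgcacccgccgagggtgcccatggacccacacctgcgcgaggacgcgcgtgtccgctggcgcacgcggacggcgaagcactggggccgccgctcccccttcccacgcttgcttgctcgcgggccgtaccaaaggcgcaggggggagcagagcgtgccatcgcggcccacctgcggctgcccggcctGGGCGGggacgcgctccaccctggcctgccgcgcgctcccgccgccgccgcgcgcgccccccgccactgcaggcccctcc
Prkag2 second: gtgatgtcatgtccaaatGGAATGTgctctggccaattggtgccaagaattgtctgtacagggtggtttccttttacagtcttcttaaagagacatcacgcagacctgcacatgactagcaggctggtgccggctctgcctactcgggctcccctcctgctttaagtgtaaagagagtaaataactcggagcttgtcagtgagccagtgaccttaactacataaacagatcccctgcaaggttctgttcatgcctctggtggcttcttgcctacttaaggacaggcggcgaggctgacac
The Aldh1a1 window is chr19:20601718-20602017 (plus strand), with the GATA motif AGATAA in capitals. It lies wholly inside the member chr19:20601707-20602020.
Aldh1a1: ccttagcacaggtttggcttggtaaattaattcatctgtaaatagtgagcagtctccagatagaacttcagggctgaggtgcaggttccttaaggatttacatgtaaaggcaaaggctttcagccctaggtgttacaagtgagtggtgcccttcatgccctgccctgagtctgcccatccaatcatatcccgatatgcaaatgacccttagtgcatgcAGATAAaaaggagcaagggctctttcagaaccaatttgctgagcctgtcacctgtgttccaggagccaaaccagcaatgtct
The Pxylp1 window is chr9:96889425-96889724 (minus strand), with GGGCGG in capitals. It lies wholly inside the member chr9:96889405-96889754.
Pxylp1: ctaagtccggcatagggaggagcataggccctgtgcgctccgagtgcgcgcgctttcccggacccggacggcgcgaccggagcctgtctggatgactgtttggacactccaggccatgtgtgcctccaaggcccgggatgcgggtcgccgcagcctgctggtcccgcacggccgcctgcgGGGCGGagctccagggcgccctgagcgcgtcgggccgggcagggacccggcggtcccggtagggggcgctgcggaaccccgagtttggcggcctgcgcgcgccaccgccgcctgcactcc

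Among the searched motifs, GGGCGG was the one found in most of the windows that members overlapped. It was in 15 of the 27 (55.6%), beside 35.9% of 32585 RefSeq start windows, counting either strand. Matches were counted anywhere in a window, also in bases outside the member, so these are not shares of member sequence. The GATA motif AGATAA was in 4 of 27 (14.8%, all windows 11.2%), the TEAD motif ACATTCC in 2 (7.41%, all 3.87%), the NR5A motif CAAGGTCA in 1 (3.70%, all 1.53%) and the RUNX motif TGTGGTT in 1 (3.70%, all 5.29%). The GR motif AGAACA, a single arm of the palindrome, was in 2 (7.41%), those of the long noncoding RNA genes Gm35189 and Gm34150, against 19% of all windows. No window held the palindromic GR element (GNACA and TGTNC, 3 bases apart), the oestrogen receptor element (GGTCA and TGACC, 3 bases apart), the forkhead motif TGTTTAC, the AP-1 motif TGANTCA, the CREB motif TGACGTCA or the C/EBP motif TTGCNNCAA, which were in 0.479%, 0.0706%, 3.67%, 7.85%, 1.80% and 2.09% of all windows. With 27 windows these shares are descriptions, and an absent match says only that those letters are not in the window. The sequences of the other members were not read, since no genome was used.

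At the aromatase start, the member had a fold enrichment of 5.80 in the first 0 h library and 10.4 in the second. At the first Prkag2 start the values were 9.54 and 10.01, and at the second 6.39 and 5.61. Another Prkag2 member, chr5:24908163-24908447, lay 91 bp from the first, with 8.52 and 7.68. Prkag2 encodes a regulatory subunit of the AMP-activated protein kinase, an energy sensor, and its nearest locus called at 6 h was 64923 bp away from the nearest member. The Aldh1a1 member, at 1 of 2 starts of a retinaldehyde dehydrogenase gene, had 5.19 and 4.36. The Pxylp1 member had 8.32 and 9.23. All of these overlapped H3K27ac.

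The members stood mostly in the weaker part of the 0 h lists, with 172 of them (32.7%) among the stronger 50% of the first list and 229 (43.5%) of the second. Fold enrichment is the authors' ratio of reads at the summit of a peak to the background that the peak caller estimated, and it ranks peaks within 1 list only. Over all peaks of a list its median was 7.34 in the first 0 h library and 7.68 in the second. Among the members it ran from 3.66 to 17.1 in the first 0 h library with a median of 7.01. In the second it ran from 3.98 to 18.9 with a median of 7.76. Ranked by the authors' p-value within each list, the median member stood at percentile 64.7 of the first list and 56.0 of the second, counted from the strongest peak. Distal loci called in all 4 libraries stood at 35.1 and 33.6. Only 12 members were among the strongest 10% of the first list and 10 of the second. The merged members had a median width of 345.5 bp, near the 380 bp of the distal loci called only at 6 h. The distal loci in all 4 libraries, which are merged from more peaks, had 643.5 bp. The summits of both libraries lay a median of 40 bp apart, and 429 of 526 pairs were within 100 bp. The rule asked for peaks of both libraries in 1 locus, which by itself keeps summits close, so these gaps are a description. Across the 526 loci the log2 fold enrichments of both libraries had a Pearson correlation of 0.64 (Spearman 0.61), given as a description, since the loci share the library and the limit of the calls.

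**Figure D1:**
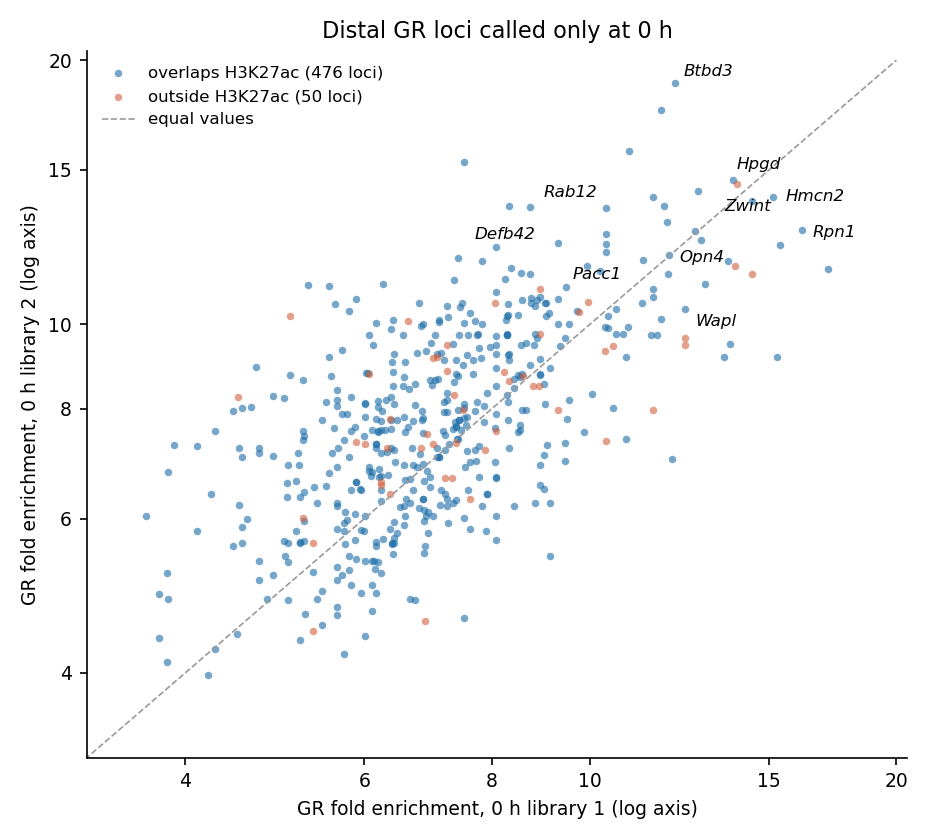
Fold enrichment of each of the 526 distal loci called only at 0 h, in the first (horizontal) and second (vertical) 0 h library, both on log axes; each point is 1 locus, blue if it overlapped H3K27ac and red if not, and the dashed line marks equal values. The points scatter on both sides of the line, 343 of them above it, and the 10 loci with the best mean rank by p-value are named by host or nearest gene.

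The strongest member by mean rank in both 0 h lists lay 20.1 kb from the end of Btbd3, a gene for a BTB domain protein, at chr2:138235958-138236481, with a fold enrichment of 12.1 in the first library and 18.9 in the second. The next, at chr10:72649839-72650283, lay 4563 bp from Zwint, a kinetochore gene, with 13.9 and 14.5, and was the only one of the 10 strongest outside H3K27ac, 3792 bp from the nearest H3K27ac peak. Those of Rab12, a small GTPase, and Opn4, the gene of melanopsin, had 10.4 and 13.6, and 11.95 and 11.98. Near Wapl, which releases cohesin from chromatin, the values were 12.4 and 10.4, with a locus called at 6 h 690 bp away. Inside Rpn1, a subunit of the oligosaccharyltransferase, they were 16.1 and 12.8. The member 27.6 kb from Hpgd, which encodes the dehydrogenase that inactivates prostaglandins, had 13.8 and 14.6. The other 3 lay near Hmcn2 (15.1 and 14.0), inside Pacc1 (11.3 and 11.8) and near Defb42 (9.30 and 12.4). The nearest locus called at 6 h was 108589 bp away at Hmcn2 and 54121 bp at Defb42. None of these 10 genes belonged to the lists described further on, and the nearest gene of a distal locus need not be the gene it acts on.

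The weakest members show where the rule cuts. The member at chr2:38706771-38707128 inside Nr5a1 had a −log10 p-value of 14.3 in the first 0 h library and 9.44 in the second. Those inside Dgkz (16.3 and 9.91) and Dlgap1 (9.93 and 20.3) came next, and 34 members had a weaker value under 12. Just outside the rule, 473 distal loci had a peak in each 0 h list and in 1 list of 6 h, 439 of them in the first 6 h library and 34 in the second. Their lowest −log10 p-value at 6 h was 9.42 and their median 20.7, their median fold enrichments at 0 h were 6.77 and 7.18, and 93.9% of them overlapped H3K27ac. The member closest to a gene end was 1018 bp away, and the closest excluded locus only at 0 h was 997 bp away. The number of members rests strongly on single libraries. It was 1167 with the first 0 h library left out, 1081 with the second left out, 983 with the first 6 h library left out and 562 with the second. A rise was bound to follow, because leaving out a library removes a condition of the rule.

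Members lay in chromatin that was acetylated at 0 h. Of the 526, 476 (90.5%, 95% Wilson interval 87.7 to 92.7) overlapped an H3K27ac peak of 0 h, an antibody and library that the rule did not use. Of all 9837 distal loci 57.2% did. The share was 36.3% (34.4 to 38.2) among the 2547 distal loci called only at 6 h, 54.2 percentage points lower (Fisher's exact test, two-sided, Benjamini-Hochberg adjusted over 4 tests, p = 1.0e-124). Among the 1174 distal loci called in all 4 libraries it was 96.2% (94.9 to 97.1), which put the members at a difference of −5.67 points (same Fisher's exact test, adjusted p = 1.2e-05). The second difference was not past the threshold once loci within 1 kb of a RefSeq start were left out from every class (90.1% against 93.6%, Fisher's exact test, adjusted p = 0.0666). That setting also dropped every locus on chromosomes outside the start table, 22 members among them. The second difference was −11.01 points without the first 0 h library, −13.3 points without the second and −3.12 points without the first 6 h library. A locus is no replicate, so what these tests compare is the lists at hand, and the intervals cover counting error only.

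**Figure D2:**
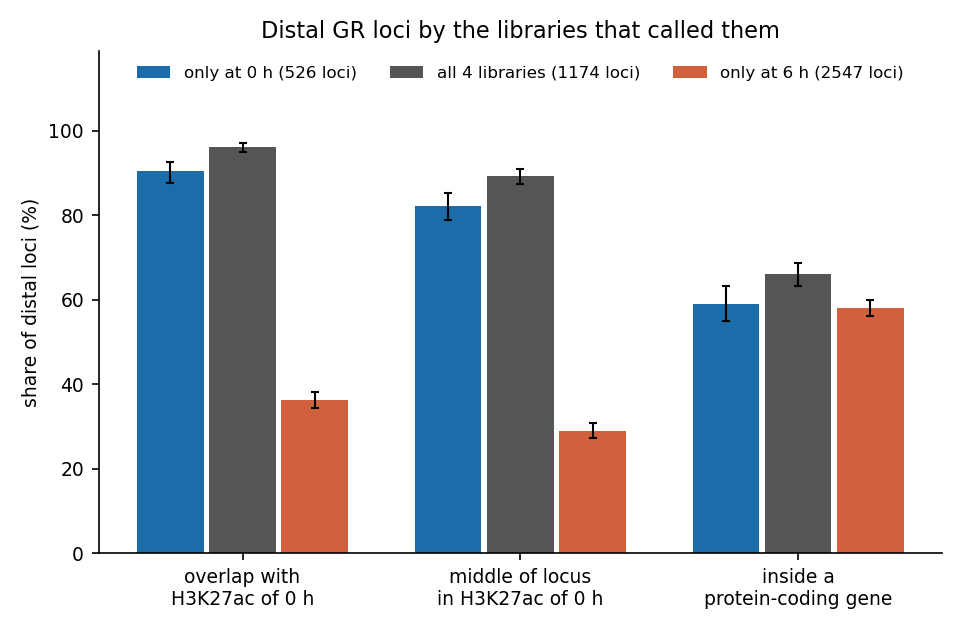
Share of distal GR loci, in percent, that overlapped H3K27ac of 0 h by 1 bp or more, whose middle lay in H3K27ac, or that lay inside a protein-coding gene, for loci called only at 0 h (blue), in all 4 libraries (grey) and only at 6 h (red); bars are shares and error bars are 95% Wilson intervals. The blue bar stands at 90.5% for H3K27ac overlap against 36.3% for the red one, while the bars for position inside a gene lie between 58.1% and 66.0%.

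The H3K27ac peaks that held members were wide. The 476 loci lay in 483 distinct H3K27ac peaks, whose median width was 2379 bp with quartiles of 1220 and 3926.5 bp. The H3K27ac peaks that held distal loci of all 4 libraries had a median width of 1648 bp, those with loci only at 6 h 862 bp, and all 25154 distal H3K27ac peaks 546 bp. The 25154 were limited to H3K27ac peaks over 1 kb from every protein-coding gene end. Peaks that held loci were not so limited and may reach a gene end, so their widths and the 546 bp are of unlike sets. A wide peak has more room to overlap a locus, and the width of H3K27ac peaks was not matched between the classes. The middle of the locus lay in H3K27ac in 82.3% of members, 89.4% of loci in all 4 libraries and 29.0% of loci only at 6 h. Summits gave like shares: the summit of the strongest peak of the locus fell within an H3K27ac peak in 427 members (81.2%, 77.6 to 84.3), at a median of 1021 bp from its edge. For the loci in all 4 libraries the share was 89.4% and the median distance 691.5 bp, and for those only at 6 h 28.5% and 378 bp. Of the 50 members outside H3K27ac, 12 were within 1 kb of an H3K27ac peak, and the median gap was 18078 bp. Their median fold enrichments were 7.36 and 8.28, beside 6.91 and 7.66 for the members inside, with no test of the difference.

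**Figure D3:**
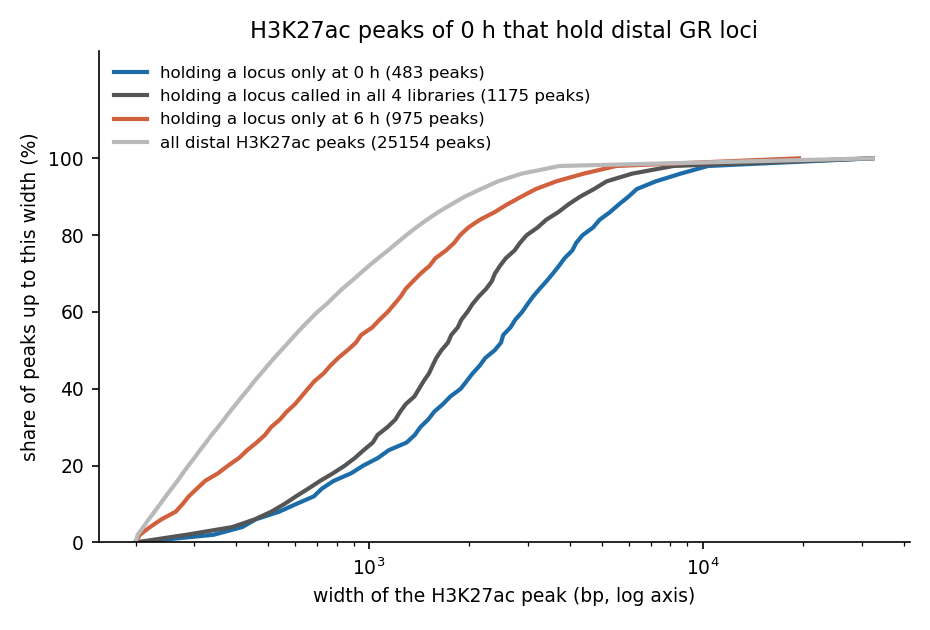
Share of H3K27ac peaks of 0 h, in percent, up to a given width in bp (log axis), for peaks holding distal loci only at 0 h (blue, 483 peaks), in all 4 libraries (dark grey, 1175 peaks) or only at 6 h (red, 975 peaks), and for all 25154 distal H3K27ac peaks (light grey). The blue curve lies furthest to the right over most of its height, with a median of 2379 bp against 546 bp for all distal H3K27ac peaks. Only the light grey set was limited to H3K27ac peaks over 1 kb from every protein-coding gene end.

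More members lay inside genes than between them. Of the 526, 311 (59.1%, 54.9 to 63.2) lay inside a protein-coding gene, beside 65.3% of all distal loci. The distal loci in all 4 libraries were inside a gene in 66.0% of cases, a difference of −6.89 points for the members (Fisher's exact test, adjusted p = 0.0099), and those only at 6 h in 58.1% (difference 1.02 points, adjusted p = 0.70). Neither comparison was stable. Against the loci in all 4 libraries the difference was −0.369 points (Fisher's exact test, adjusted p = 0.916) over 5 kb from gene ends. It turned to 4.56 points (Fisher's exact test, adjusted p = 0.173) without loci near a RefSeq start or on chromosomes outside the start table. The same difference was not past the threshold without the first or the second 0 h library (Fisher's exact test, adjusted p = 0.098 and 0.134). Against the loci only at 6 h, members were inside genes more often by 4.86 points without the second 0 h library (Fisher's exact test, adjusted p = 0.0081). The difference was −2.88 and −2.71 points without the first or the second 6 h library (Fisher's exact test, adjusted p = 0.0957 and 0.213).

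The median member was 25156 bp from the nearest gene end, with a range of 1018 bp to 1.62e+06 bp. Within 50 kb of each other, the members formed 472 groups, of which 436 were single loci, 30 were pairs and 6 held 3 or more, up to 9. Members were 5.35% of all distal loci. Chromosome 14 held 42 members among its 369 distal loci (11.4%), the highest share, and chromosome 9 the lowest with 3.32%. Chromosome 18 followed with 8.46%.

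Of the 526 members, 159 (30.2%) had a locus called at 6 h within 10 kb, and 95 (18.1%) had one called in both 6 h libraries. The median gap was 23606 bp to a locus of any 6 h library and 102695 bp to a locus of all 4 libraries. Of the 476 members in H3K27ac, 64 (13.4%, 10.7 to 16.8) shared their H3K27ac peak with a locus called at 6 h, and in 35 both 6 h libraries called it. For the 51 members with a GR locus within 500 bp, the closest one was called in a 6 h library in 27 cases, was another locus only at 0 h in 12, and was called in 1 library of 0 h in 12. Whether those 27 are parts of a wider bound region was not tested. The neighbour counts were made for the members only, so whether other distal loci differ from them was not tested.

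Most genes with a member had only 1. Assigned to its host gene or else to the gene with the nearest end, the members fell to 449 genes, of which 401 had 1, 36 had 2 and 12 had 3 or more. Inhba, which encodes the subunit shared by activin A and inhibin A, had the most, 11. Greb1, named as a gene induced by oestrogen, had 7 and Dlgap1, a scaffold protein gene, had 5. Cradd, a death domain adaptor, Prkar2b, a regulatory subunit of the cyclic AMP dependent kinase, and Gja1, a gap junction connexin, had 4 each. Fam13a, Prkag2, Trib2, a pseudokinase, and Nr5a2, a nuclear receptor, had 3 each, as did Dis3l2 and Igsf11, whose summed fold enrichments were lower. Some of these members lay far from the gene. In the gene or within 50 kb of it lay 9 for Inhba, 3 for Cradd, 2 for Gja1 and 1 each for Trib2 and Nr5a2.

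At Inhba, 9 members lay inside the gene, from 4.8 to 18 kb downstream of its RefSeq start, between chr13:16016454 and chr13:16029987. All 9 overlapped H3K27ac, and 7 of them shared 1 H3K27ac peak of 16827 bp, chr13:16010358-16027184. They were closely spaced, each with another GR locus 37 to 1796 bp away. How many separate binding sites the 9 stand for was not tested. In the first 0 h library their fold enrichments ran from 5.61 to 7.78 and in the second from 4.85 to 10.5. The member at 15.7 kb had 7.78 and 9.40, that at 4.8 kb 6.03 and 8.80, and that at 18 kb 5.61 and 10.5. The gene also bound GR at 6 h, but closer to its start: of the 16 loci in the gene and 25 kb to each side, 3 were called in a 6 h library. A locus at 2.6 kb had 8.08 and 11.3 at 0 h, 6.51 in the first 6 h library and no peak in the second. Another at 0.4 kb had 4.89 in the first 0 h library, none in the second, and 7.75 and 4.39 at 6 h. The last, at −1.8 kb, was called only at 6 h with 5.36 and 6.33 and lay outside H3K27ac. It was upstream of the RefSeq start used here but inside the gene span. The 2 further loci assigned to Inhba as the nearest gene lay 271 and 330 kb downstream of the start.

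**Figure D4:**
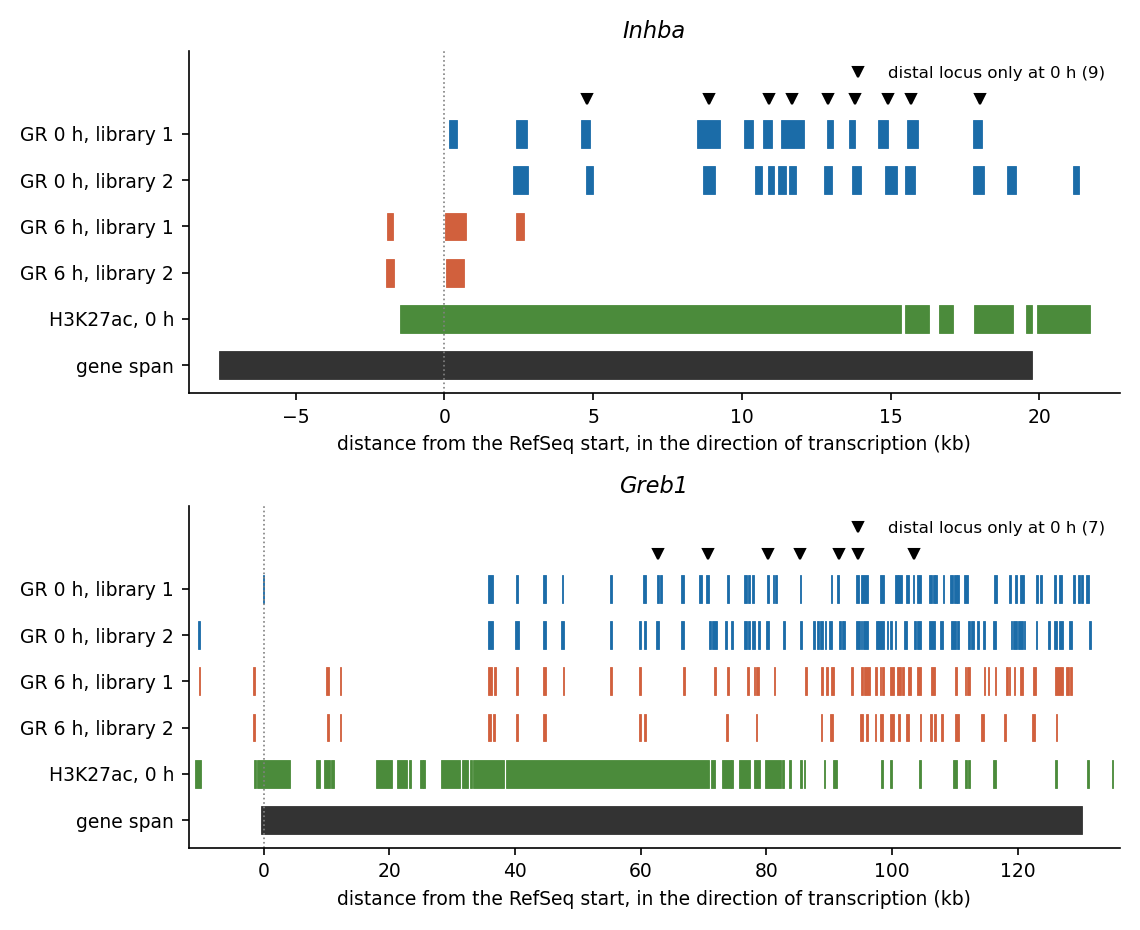
Peaks of each GR library (blue 0 h, red 6 h), H3K27ac peaks of 0 h (green) and the gene span (black) at Inhba and Greb1, by distance in kb from the RefSeq start farthest upstream in the start table; triangles mark distal loci called only at 0 h. At Inhba the 9 members lie from 4.8 to 18 kb where no 6 h library has a peak, and at Greb1 the 7 members are interspersed among 46 loci called in a 6 h library.

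Greb1 had a different layout. Its 7 members lay among 73 loci in the gene and 25 kb to each side, 46 of which were called in a 6 h library and 14 in all 4. Their fold enrichments were 4.70 to 7.26 in the first 0 h library and 4.58 to 9.16 in the second, and 4 of the 7 overlapped H3K27ac. The member at chr12:16706024-16706607 was 3 bp from a locus called at 6 h and that at chr12:16697108-16697624 was 114 bp from one. Nr5a2 had 46 loci in the gene and 50 kb to each side, 19 of them called at 6 h. Genes with 5 or more GR loci inside them numbered 333 (1.54% of protein-coding genes), Inhba with 15, Greb1 with 69 and Nr5a2 with 46 among them, and they held 91 members (17.3%) and 25.2% of all distal loci. The part of this density in the classes was not tested.

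At Dlgap1 the fold enrichments ran from 3.90 to 6.16 in the first library and 5.96 to 8.63 in the second, and all 5 overlapped H3K27ac. At Gja1, members lay 7.0 and 9.9 kb downstream of the start, inside the gene, with 6.91 and 6.79 for the first and 6.16 and 5.59 for the second. Each was close to a locus called at 6 h, at 507 and 1379 bp. The other members assigned to Gja1 lay 108.6 and 114.5 kb downstream of the start, outside the gene. At Fam13a, 3 members lay within 4447 bp, with 7.52 and 15.3, 6.01 and 8.11, and 5.89 and 10.7. All were higher in the second library, whose whole list also had the higher median. The nearest locus called at 6 h was 43072 bp away.

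Genes of the FSH response and of granulosa identity were among those with members nearby. Over all 21627 protein-coding genes, 747 (3.45%) had a member within the gene or 50 kb of it. In a list of 18 genes for the FSH response, oestradiol and granulosa identity, 9 (50%) did, namely Cyp19a1, Esr2, Foxl2, Nr5a2, Nr5a1, Gata4, Ccnd2, Nppc and Gja1. They had 12 members, all 12 in H3K27ac, as were 90.5% of all members. The other 9 genes, such as Fshr, Lhcgr, Wt1 and Igf1, had none. Genes of this list lay near other distal loci too: 9 of the 18 had a locus of all 4 libraries (all genes 10.9%) and 5 a locus only at 6 h (all genes 14.1%). Without genes that hold 5 or more GR loci the count was 5 and with the stronger 50% of each list it was 3. This list was chosen with earlier results of these data known, so its shares are a description only.

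Within the list, the member of Foxl2, a forkhead factor that maintains granulosa identity, lay 9.6 kb downstream of the start at chr9:98965071-98965388 with a fold enrichment of 8.28 in the first 0 h library and 8.29 in the second. The nearest locus called at 6 h was 7671 bp away. In Nr5a1, the gene of steroidogenic factor 1, the member at chr2:38704227-38704687 had 8.32 and 13.6 and a second member 5.45 and 4.53. In Gata4, a zinc finger factor of granulosa cells, the values were 8.43 and 8.65, and a locus called at 6 h was 1647 bp away. In Esr2, the oestrogen receptor of granulosa cells, the member lay 31.5 kb downstream of the start with 5.89 and 6.60. Upstream of Nppc, whose peptide holds the oocyte in meiotic arrest, a pair of members lay at −47.6 and −49.1 kb, with 6.69 and 7.76, and 7.24 and 8.34, inside the neighbouring gene Dis3l2. Those in Ccnd2, a cyclin gene that FSH induces (6.19 and 5.35), and Nr5a2 (6.42 and 5.63) were only 71 and 248 bp from a locus called at 6 h.

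The inhibin, activin, BMP and AMH pathway had a member near 8 of 25 genes (32.0%, all genes 3.45%). Of their 19 members, 9 lay inside Inhba. All 19 overlapped H3K27ac, as did 90.5% of all members. Ligand subunits were Inha, Inhba and Inhbb, receptors were Bmpr1b, Acvr1b and the co-receptor Tgfbr3, and Smad7 and Id3 are an inhibitor and a target of the pathway. Near Inha, the inhibin alpha subunit, the member lay 11.9 kb downstream of the start and 1759 bp from an end of Stk11ip, with 8.35 and 11.6. Inhbb, the beta B subunit, had members on both sides, at 35.6 kb downstream (5.01 and 8.24) and at −35.5 kb (6.10 and 4.70). No locus called at 6 h lay in its window, which among the genes named from the lists was otherwise so only for Pck1. The member at −9.6 kb from Id3 had 10.2 and 11.5, and lay 348 bp from a locus called at 6 h. In Bmpr1b, a BMP receptor, the values were 4.88 and 7.06, and 5.13 and 5.81, and in Tgfbr3 6.42 and 9.24. Near Smad7 they were 8.07 and 7.61. The pair near Acvr1b lay 67.0 and 74.1 kb downstream of its start and closer to Nr4a1. This list also had 13 of 25 genes with a locus only at 6 h and 10 with a locus of all 4 libraries. The count of 8 fell to 5 without genes that hold 5 or more GR loci, to 5 with a window of 10 kb and to 4 with the stronger 50% of each list. Earlier results of these data were known when this list was chosen too, so its shares are likewise a description.

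**Figure D5:**
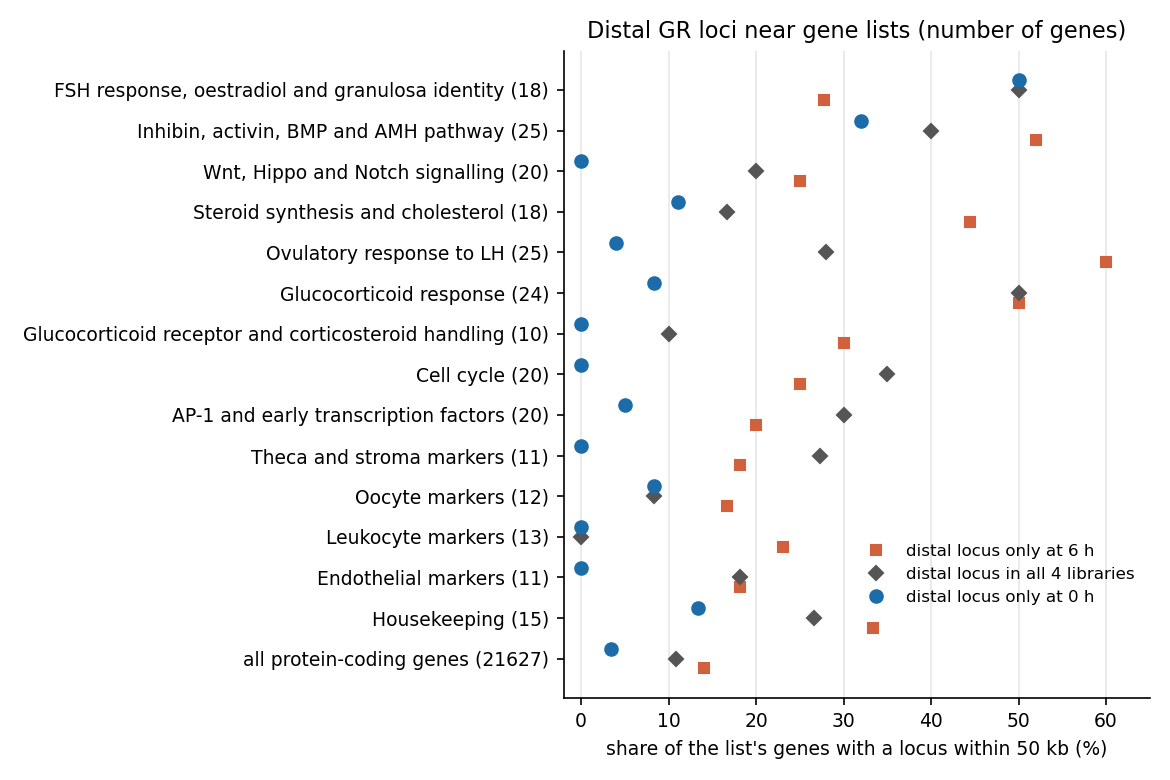
Share of the genes of each list, in percent, with a distal locus in the gene or within 50 kb, for loci only at 0 h (blue circles), in all 4 libraries (grey diamonds) and only at 6 h (red squares); the number of genes is in parentheses and the bottom row gives all protein-coding genes. The blue circles stand at 50% and 32.0% for the top lists and at 13.3% or less for every other list, while red squares reach 60.0% for the ovulatory list. The lists were chosen with earlier results of these data known, so the shares are descriptions.

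In each list for another process, at most 2 genes had a member in reach. Of 25 genes of the ovulatory response to LH only Zfp36, which encodes an mRNA decay factor, had one (4%), with 6.93 and 6.10 and a locus called at 6 h 257 bp away, whereas 15 had a distal locus only at 6 h. Of 24 genes of the glucocorticoid response, 2 had one (8.33%), beside 12 with a locus of all 4 libraries and 12 with one only at 6 h. They were Fkbp5, a co-chaperone of GR, with 7.91 and 6.402, and Pck1, the gluconeogenic carboxykinase, with 8.08 and 9.48 at 20.8 kb downstream of its start. Of 18 genes of steroid synthesis and cholesterol, 2 had one (11.1%). In Hsd3b1, which makes progesterone, the member had 4.55 and 5.86 and another upstream had 7.52 and 8.02. In Scarb1, the receptor for high density lipoprotein, it had 5.13 and 6.62. Of 20 genes of AP-1 and other early transcription factors only Nr4a1 had any (5%), with 6.41 and 5.70, and 7.71 and 7.17.

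No member lay within 50 kb of the 20 genes for Wnt, Hippo and Notch signalling, the 20 of the cell cycle or the 10 of GR and corticosteroid handling. None lay near the 11 theca and stroma, 13 leukocyte or 11 endothelial markers either. A member lay near 1 of 12 oocyte markers, 4101 bp from Gdf9 with 7.58 and 6.46, and near 2 of 15 housekeeping genes (13.3%), such as Gapdh with 8.81 and 9.45. With 10 to 25 genes in a list and 3.45% over all genes, 0 or 1 is close to the background. The lists with 2 genes near a member had 8.33% for the glucocorticoid response, 11.1% for steroid synthesis and 13.3% for housekeeping. Each of these shares rests on 2 genes, and whether it differs from the background was not tested. The genes of the lists were not matched with all genes for size or activity. Of the 747 genes with a member in reach, 662 (88.6%) also had a locus called in a 6 h library, beside 66.7% of all genes, and 85 (11.4%) had none. Every GR call within 50 kb was thus limited to 0 h for the 85 genes, and for the other 662 the gene kept a GR call in reach at 6 h, at another position.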

How the data were processed

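GR and H3K27ac ChIP-seq peak lists of 5 libraries were used. Per the submitters' processing notes, reads were aligned with Bowtie2 2.4.5 to mm10 and peaks were called with MACS2, and the authors deposited 1 list per library. The deposited GR lists give, for each peak, its summit, its fold enrichment (a ratio) and its −log10 p- and q-values. The deposited score is 10 × −log10 p, truncated, and was not used. The authors' H3K27ac list gives positions only.

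Peaks were merged, classed and measured in Python 3.11.15 (pandas 2.3.3, NumPy 2.4.6, SciPy 1.17.1, matplotlib 3.10.9), and the code was tested on made-up peaks with known classes. Gene spans came from an NCBI RefSeq table of GRCm38.p6 (21627 protein-coding genes on the chromosomes used), which has no strand or exons, so introns, exons and untranslated regions were not told apart. Starts and sequences came from the RefSeq start table of the same assembly. The planned motif search around summits needs a genome and was replaced by a search of the start windows, which changes what it covers.

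Fisher's exact test (two-sided) compared shares of loci, with Benjamini-Hochberg adjustment over 4 tests. Genes were named by rule: the 10 members with the best mean rank, the 10 genes with most members (ties by the larger summed fold enrichment), list genes with a member within 50 kb and the 3 weakest members. The members and lists were chosen with earlier results of these data known. Alternatives were other merging, list lengths, distances, windows, and leaving out each library.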

Additional observations from a re-analysis of the deposited data

How the results depend on the processing

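The difference in H3K27ac overlap from distal loci only at 6 h kept its direction and stayed past the threshold in all 14 alternatives, at 41.7 to 62.4 points, with adjusted p from 7.6e-299 to 7.1e-53. That from loci in all 4 libraries did so in 13 of 14, and with 1 library left out it was −13.3 to −3.12 points. It was −3.48 points without loci within 1 kb of a RefSeq start, an alternative added after the data were seen. The same alternative also dropped the loci on chromosomes outside the start table. Position inside a gene against loci in all 4 libraries was −0.369 points over 5 kb from gene ends, 4.56 without loci near a RefSeq start, and −5.37 to −3.0 with 1 library left out. Against loci only at 6 h, leaving out 1 library gave −2.88 to 4.86 points. The members numbered 238 and the genes with a member 429 with the stronger 50% of each list, and the genes 336 with a window of 10 kb. With 1 library left out there were 562 to 1167 members and 798 to 1797 genes. These counts follow from fewer peaks, a narrower window or a condition removed; the cause of the other changes was not tested. Equal numbers of strongest peaks gave 714 members. No paired analysis was possible because the replicate number does not enter a count of loci. No depth is known, so a member may be a locus bound at 6 h below the authors' limit.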
